A study of Mus musculus with 36 samples.

Results

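The genes described here are 10 protein-coding neighbours of the HoxD cluster on mouse chromosome 2: Wipf1, Chn1, Atf2 and Atp5g3 on the Hoxd13 side, and Mtx2, Hnrnpa3, Nfe2l2, Agps, Ttc30b and Ttc30a1 on the Hoxd1 side. They were taken by gene symbol and locus from the deposited FPKM table, not by their values, and joined by Ensembl identifier to the read counts, so that 10 of the 50833 genes of the count table are described. The transcriptome was measured by poly(A) RNA-seq in 36 libraries from mouse forelimbs of strain B6CBAF1 at embryonic stage E12.5. The 5 deletion alleles made with CRISPR/Cas9, which run from Del(CBS1) through Del(CBS1-2), then Del(CBS1-3) and Del(CBS1-4), to Del(CBS1-5), lack a growing number of sites bound by CTCF, labelled CBS, within the Hoxd region and were compared with wild type (WT) embryos. Each genotype was sampled in distal forelimb, the future hand, and in proximal forelimb, with 3 libraries per genotype and tissue. Each library came from the dissected forelimb pair of 1 embryo. All groups share strain and stage. The sources used here do not give zygosity or the number of founder lines per allele.

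The HoxD genes lie between a pair of large regulatory landscapes, one on each side, which drive their transcription in the digits and in the proximal limb. CTCF is a DNA-binding protein that halts loop extrusion by cohesin, and the sites it occupies at the cluster help to set which landscape contacts which Hoxd gene. The neighbours beyond or within these landscapes carry out general cell functions and are not themselves patterning genes of the limb.

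On the mm10 build, the genes of the Hoxd13 side are all on the minus strand. Atp5g3 (chr2:73908447-73911326), which encodes subunit c of the mitochondrial ATP synthase, ends 757 kb from Hoxd13. Atf2 (chr2:73816509-73892639), a leucine zipper factor that binds cyclic AMP response elements, lies 776 kb away. Chn1 (chr2:73610660-73775346), a Rac GTPase-activating protein that acts downstream of the EphA4 receptor, lies 893 kb away, and Wipf1 (chr2:73429610-73529734), a partner of WASP in actin assembly, 1140 kb away. On the Hoxd1 side Mtx2 (chr2:74825803-74878431, plus strand), a metaxin of the mitochondrial outer membrane, is nearest, at 60.7 kb from Hoxd1. Hnrnpa3 (chr2:75659261-75669407, plus strand), an RNA-binding protein, follows at 894 kb. Nfe2l2 (chr2:75675513-75704641, minus strand) encodes NRF2, the main activator of antioxidant genes, and lies 910 kb away. Agps (chr2:75832177-75931350, plus strand), the peroxisomal enzyme that makes the ether bond of ether lipids, lies 1070 kb away. Ttc30b (chr2:75935849-75938585) and Ttc30a1 (chr2:75978247-75981967), both on the minus strand, encode subunits of the ciliary intraflagellar transport complex B and lie 1170 and 1210 kb away.

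**Figure D1:**
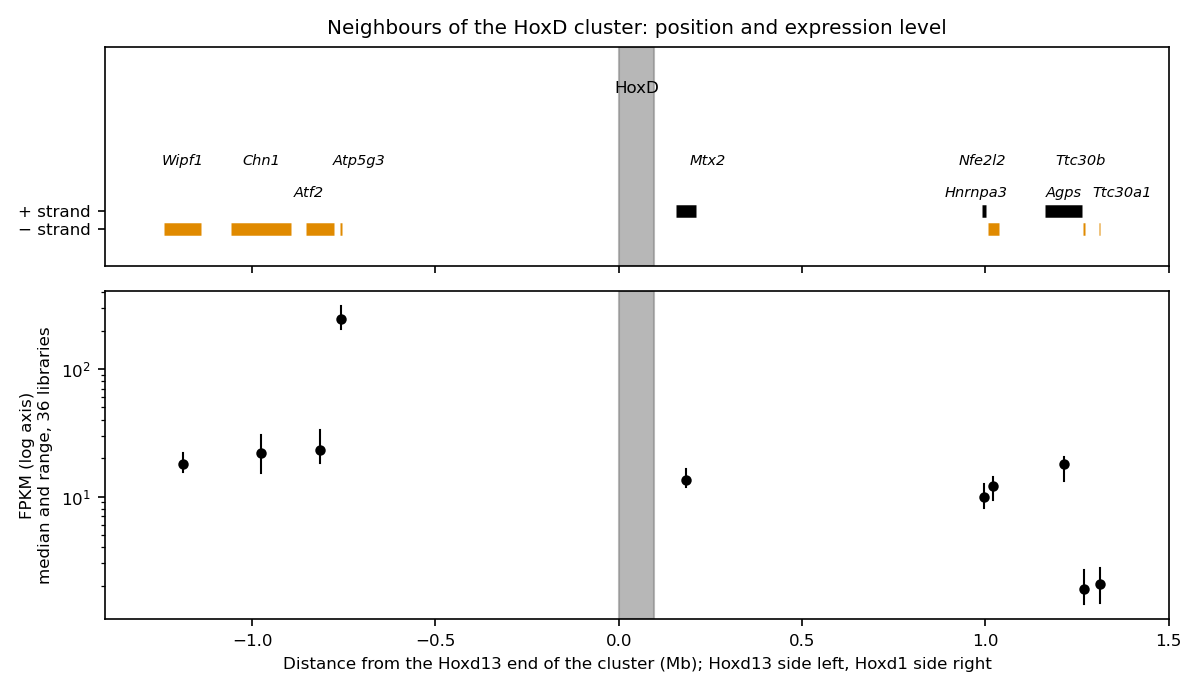
Upper panel, position of the 10 genes by strand, as distance in Mb from the Hoxd13 end of the cluster (grey band); lower panel, median FPKM (point, log axis) and range over 36 libraries (line). Atp5g3, at a median of 246 FPKM, stands above the other genes, and the Ttc30 pair, near 2 FPKM, below them.

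Levels between genes were compared as FPKM, fragments scaled to transcript length and to library size. Over the 36 libraries the median was 246 FPKM for Atp5g3, 23.3 for Atf2, 21.9 for Chn1, 18 for Wipf1, 17.9 for Agps, 13.6 for Mtx2, 12 for Nfe2l2, 9.85 for Hnrnpa3, 2.07 for Ttc30a1 and 1.87 FPKM for Ttc30b. The range of Atp5g3 (207 to 313 FPKM) did not meet that of any other of these genes. Atf2 (18.3 to 33 FPKM), Chn1 (15.2 to 30.6), Wipf1 (15.6 to 22) and Agps (13.3 to 20.6) overlapped with each other, and Ttc30b (1.43 to 2.65) overlapped with Ttc30a1 (1.46 to 2.77).

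The promoters of 4 genes are shown because their transcripts behaved differently below: Chn1 and Atf2 were higher in distal tissue, Mtx2 is the neighbour nearest to the cluster, and Hnrnpa3 was the gene called lower with an allele by the largest margin. Each stretch is 300 bases, from 250 bases before to 50 after the start, from RefSeq on GRCm38.p6, in the direction of transcription. Capitals mark 3 motifs on either strand: the CCAAT box (CCAAT), the GC box (GGGCGG) and an ETS factor site (CCGGAAGT), with overlapping matches counted separately.
Chn1 (chr2:73775297-73775596, minus strand): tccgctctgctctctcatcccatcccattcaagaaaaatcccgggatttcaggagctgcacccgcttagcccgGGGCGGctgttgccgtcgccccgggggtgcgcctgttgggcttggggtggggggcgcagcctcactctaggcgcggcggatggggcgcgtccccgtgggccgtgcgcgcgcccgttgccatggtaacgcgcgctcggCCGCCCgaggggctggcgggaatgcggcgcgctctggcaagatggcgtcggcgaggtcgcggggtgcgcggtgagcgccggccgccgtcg
Atf2 (chr2:73892590-73892889, minus strand): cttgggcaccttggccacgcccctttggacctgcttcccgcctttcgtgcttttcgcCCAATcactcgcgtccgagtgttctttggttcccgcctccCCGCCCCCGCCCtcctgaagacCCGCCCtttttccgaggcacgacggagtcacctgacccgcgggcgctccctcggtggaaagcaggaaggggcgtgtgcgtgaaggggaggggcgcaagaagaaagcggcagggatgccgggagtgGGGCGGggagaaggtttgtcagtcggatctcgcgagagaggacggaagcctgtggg
Mtx2 (chr2:74825562-74825861, plus strand): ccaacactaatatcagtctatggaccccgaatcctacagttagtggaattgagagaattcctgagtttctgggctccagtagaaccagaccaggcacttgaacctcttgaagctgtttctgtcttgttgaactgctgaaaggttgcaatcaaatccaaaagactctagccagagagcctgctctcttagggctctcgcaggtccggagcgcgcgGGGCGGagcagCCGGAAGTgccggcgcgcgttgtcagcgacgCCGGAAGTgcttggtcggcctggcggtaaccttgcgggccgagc
Hnrnpa3 (chr2:75659009-75659308, plus strand): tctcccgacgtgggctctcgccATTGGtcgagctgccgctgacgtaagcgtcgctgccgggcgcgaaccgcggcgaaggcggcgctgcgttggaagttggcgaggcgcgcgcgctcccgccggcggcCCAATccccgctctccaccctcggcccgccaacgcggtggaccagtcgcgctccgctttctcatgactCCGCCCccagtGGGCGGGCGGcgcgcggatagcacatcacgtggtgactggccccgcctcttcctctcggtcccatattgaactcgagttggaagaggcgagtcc

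RefSeq promoters were matched for 9 of the 10 genes, the exception being Ttc30b. A GC box was found in 7 of these 9, against 35.7% of all 32851 promoters of that length, and a CCAAT box in 5 of 9, against 37.4%. Atf2 held 4 GC boxes and 1 CCAAT box, Hnrnpa3 held 3 and 2, and Chn1 held 2 GC boxes and no CCAAT box. The ETS site was found in Mtx2 alone among the 9, with 2 matches, and in 3.89% of all promoters. No TATA box (TATAAA) was found in the 9, against 13.6% of all promoters. The core of the antioxidant response element (TGACNNNGC), which NRF2 binds, was found in Mtx2, Hnrnpa3 and Nfe2l2, against 12.4%. The full cyclic AMP response element (TGACGTCA) was not found in the 9, against 1.79% of all promoters, and its first bases (TGACG) in Hnrnpa3 alone, against 20.8%. GC content ran from 43.7% in Ttc30a1 to 75.3% in Wipf1, around a median of 52.7% over all promoters. These matches describe letters in the windows and not sites in use.

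Total counts per library ran from 11062069 to 17727891, and each of the 10 genes passed the filter on low counts in every comparison. Reads per library ran from 78 to 152 for Ttc30b, from 93 to 215 for Ttc30a1 and from 491 to 5117 for the other genes, so the Ttc30 pair was measured least precisely. The tissue labels fitted their markers in WT: 9 of 10 distal limb genes were called higher and 10 of 10 proximal limb genes lower in distal tissue. Hoxd13 differed by 4.23, Evx2 by 5.01 and Lnpk by 1.70 on the log2 scale, distal over proximal, and Hoxd9 by -1.48, which sets the scale for the smaller differences of the 10 neighbours. In 50-base windows of their transcripts, 28.2% of Hnrnpa3 were shared exactly with transcripts of 43 other genes, most of them pseudogenes, and 34.8% of Ttc30b and 31.8% of Ttc30a1 with 2 others each. The counts of these 3 genes are uncertain, as the treatment of reads with several matches was not given in the sources used here. Chn1 shared 2.92% of its windows with transcripts of the opposite strand, and its antisense gene Chn1os3 was at 0.739 CPM on average.

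Across the 36 libraries the level of each gene, as read counts scaled to library size by TMM (CPM), varied less than 2-fold. Mtx2 was the steadiest of the 10, with a coefficient of variation of 6.83% and a highest library 1.35 times the lowest. Agps followed with 7.19% and a 1.38-fold range. Wipf1 (9.36%), Atp5g3 (10.6%), Nfe2l2 (11.1%) and Hnrnpa3 (11.9%) were intermediate, and Ttc30b (13.9%), Atf2 (14.3%), Chn1 (14.4%) and Ttc30a1 (15.8%) varied most. Set beside genes whose mean level was within a factor of 2, Atf2 stood at percentile 79.4 of this coefficient, Chn1 at 75.4, Hnrnpa3 at 66.6, Atp5g3 at 64, Nfe2l2 at 55.3 and Wipf1 at 54.9, so that these 6 varied more than most genes of like level. The other 4 lay below percentile 50, with Ttc30a1 at 41.8, Agps at 33.2, Mtx2 at 17.1 and Ttc30b at 16.7.

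**Figure D2:**
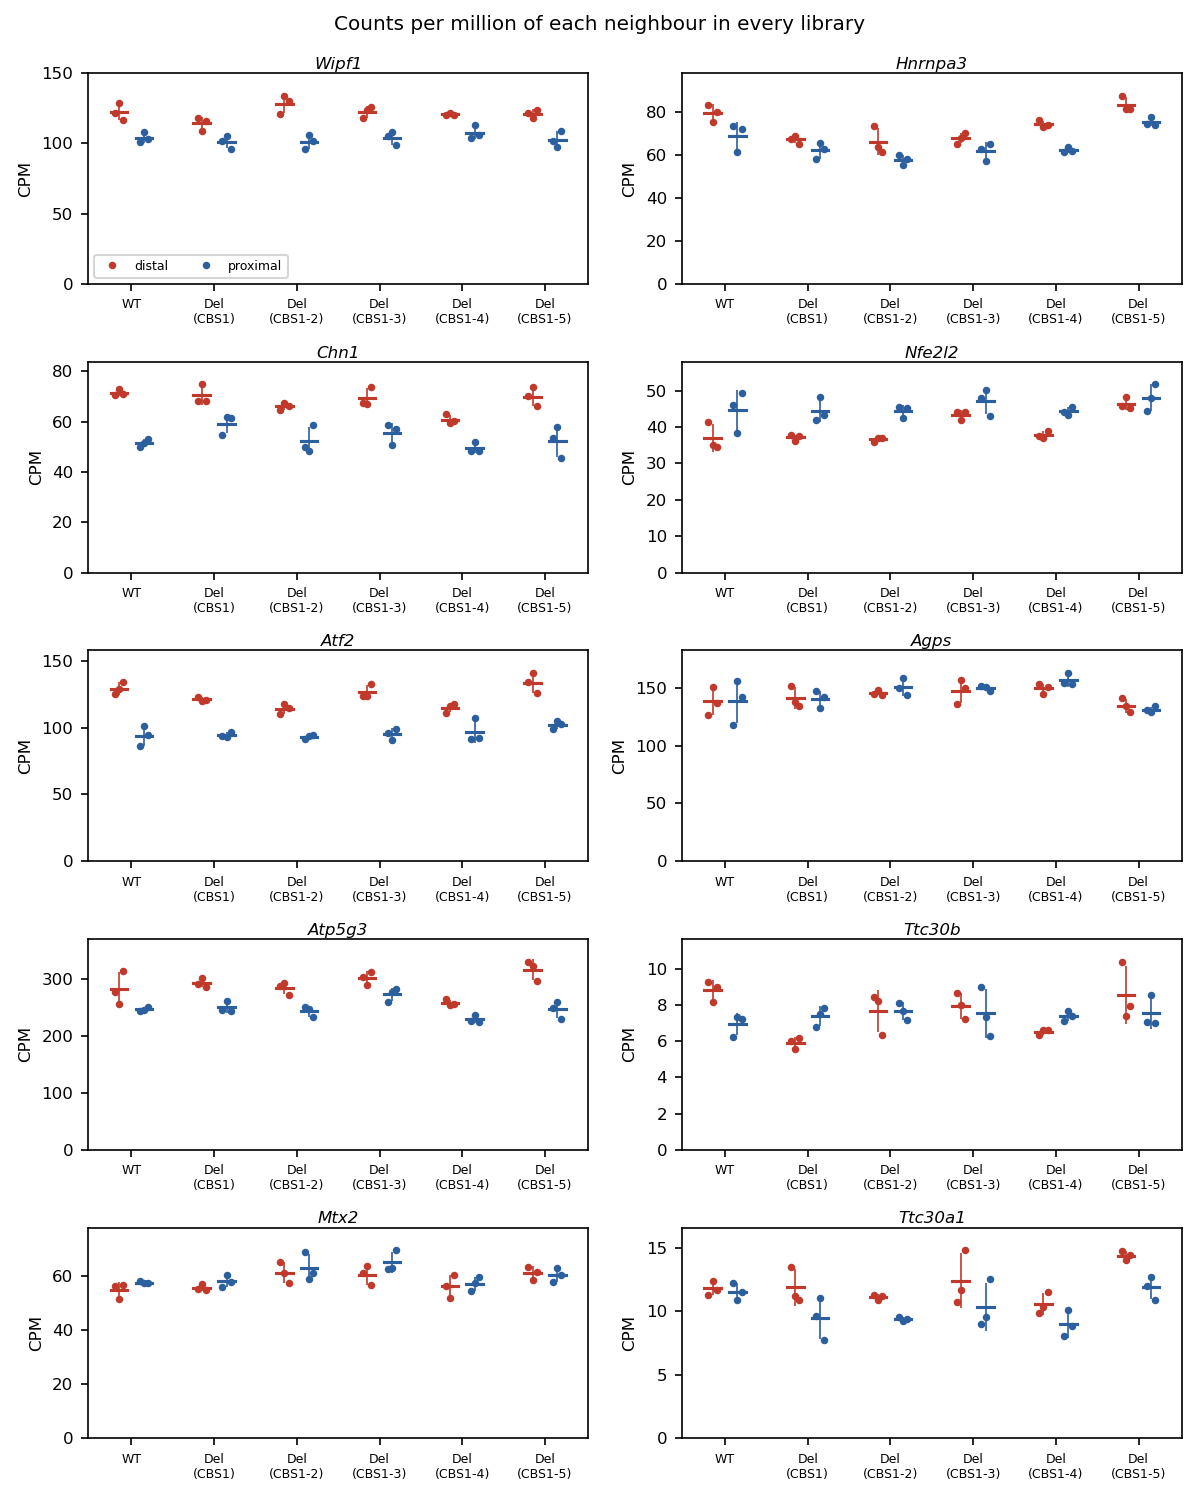
CPM of each gene by genotype, with distal libraries in red and proximal libraries in blue; points are libraries, horizontal bars the mean and vertical bars the SD of 3 libraries. Wipf1, Chn1, Atf2 and Atp5g3 are separated by tissue in each genotype, and Mtx2 stays between 51.4 and 69.4 CPM in all 36 libraries.

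The first comparison asked how the neighbours differ between distal and proximal forelimb without any deletion. In WT, 3 of the 10 genes rose in distal tissue and all 3 lie on the Hoxd13 side: Chn1, Atf2 and Wipf1. They were called with edgeR's quasi-likelihood test at a p under 0.05 after Benjamini-Hochberg adjustment across every gene tested, a rule that called 30.7% of the 14918 genes tested (13.6% higher, 17.1% lower). The share of the neighbours was near this background. The share of all genes whose WT groups did not overlap was not counted.

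Chn1 stood at 70.4, 73 and 71 CPM in distal WT, against 50, 51.5 and 53.2 CPM in proximal WT. Every distal library lay above every proximal one, and the log2 fold change was 0.47 ± 0.06 (SE; edgeR adjusted p = 0.000515). Atf2 stood at 125, 129 and 134 CPM in distal WT, against 85.9, 101 and 94.6 CPM in proximal WT. Its groups did not overlap either, and it was higher by 0.46 ± 0.07 (edgeR adjusted p = 0.00108). Wipf1 had 122, 129 and 117 CPM in distal WT, against 101, 108 and 103 CPM in proximal WT. This smaller difference of 0.24 ± 0.06 was called as well (edgeR adjusted p = 0.0168), but not without proximal WT replicate 1 (edgeR adjusted p = 0.0633) or without proximal WT replicate 3 (edgeR adjusted p = 0.056). 

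Mtx2, the neighbour nearest to the cluster, was not called between the WT tissues. It stood at 56.2, 51.4 and 56.5 CPM in distal WT, against 57.9, 57.1 and 57.1 CPM in proximal WT, a log2 difference of -0.07 with a 95% interval of -0.21 to 0.07 (edgeR adjusted p = 0.44). Every distal WT library lay below every proximal WT library, and Mtx2 was lower in distal tissue in 3 of 3 WT embryos. Agps averaged 138 ± 12.1 CPM in distal WT and 139 ± 19.2 CPM in proximal WT (SD, n = 3 each), with an interval of -0.24 to 0.23. Ttc30a1 (0.03 ± 0.12) and Ttc30b (0.34 ± 0.15) were not called.

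The replicate numbers pair the tissues of an embryo, so the contrast was repeated with the embryo as a block. Then 6 of the 10 genes passed, against 38.6% of all genes, with Atp5g3 (0.19, edgeR adjusted p = 0.017) and Hnrnpa3 (0.21, edgeR adjusted p = 0.0167) also higher and Nfe2l2 (-0.27, edgeR adjusted p = 0.0334) lower in distal tissue. Without the block these 3 had edgeR adjusted p values of 0.0805, 0.0901 and 0.106. In 1 fit of all 36 libraries 7 of 10 passed, Ttc30b among them, against 38.4% of all genes. 

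The same tissue contrast, averaged over the 5 deletion alleles and resting on 30 other libraries, called 7 of the 10 genes, against 66.5% of the 16292 genes tested (33.3% higher, 33.2% lower). Chn1 (0.33 ± 0.03), Atf2 (0.34 ± 0.03), Wipf1 (0.23 ± 0.02), Atp5g3 (0.22 ± 0.03), Hnrnpa3 (0.17 ± 0.03) and Ttc30a1 (0.27 ± 0.06) were higher in distal mutant tissue, and Nfe2l2 was lower (-0.19 ± 0.03). Mtx2 (-0.04, 95% interval -0.10 to 0.02) and Agps (-0.02, -0.09 to 0.04) had the narrowest bounds around no difference. Ttc30b (-0.05 ± 0.06) was not called. All 4 genes of the Hoxd13 side were among those higher in distal tissue, against 2 of 6 higher and 1 of 6 lower on the Hoxd1 side. The share called was near the background, and a difference between the sides was not tested.

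**Figure D3:**
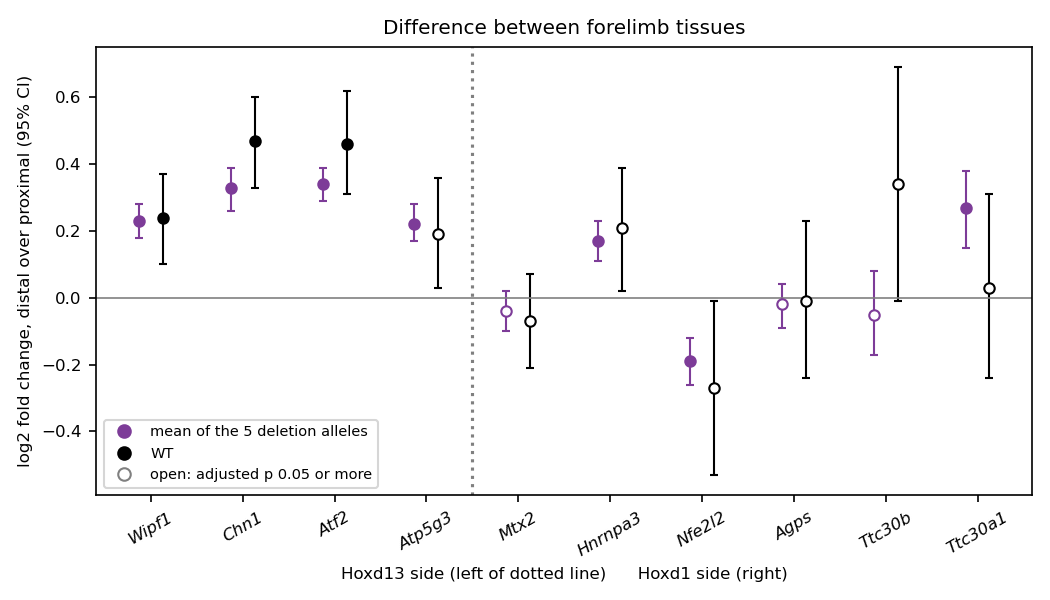
Log2 fold change of distal over proximal forelimb for each gene in chromosomal order, for the mean of the 5 alleles (purple) and for WT (black), with 95% confidence intervals; filled points have an adjusted p under 0.05. The 4 genes left of the dotted line are above 0 in both, while the intervals of Mtx2 and Agps include 0 in both.

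The tissues were also compared within single embryos. The distal over proximal ratio of CPM was above 1 in 18 of 18 embryos for Wipf1 (1.04 to 1.28, median 1.17), Chn1 (1.11 to 1.45, median 1.29), Atf2 (1.08 to 1.45, median 1.29), Atp5g3 (1.04 to 1.32, median 1.17) and Hnrnpa3 (1.04 to 1.24, median 1.14). Of all 16292 genes, 15.4% were higher in distal tissue in every embryo and 15.8% lower in every embryo. Ttc30a1 was higher in 17 of 18 embryos, with a median ratio of 1.19, and Nfe2l2 lower in 15 of 18, with a median of 0.866. For Mtx2 the ratio was below 1 in 12 of 18 embryos, between 0.812 and 1.09. Agps was below 1 in 11 of 18 embryos (0.885 to 1.07) and Ttc30b in 9 of 18 (0.739 to 1.49).

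**Figure D4:**
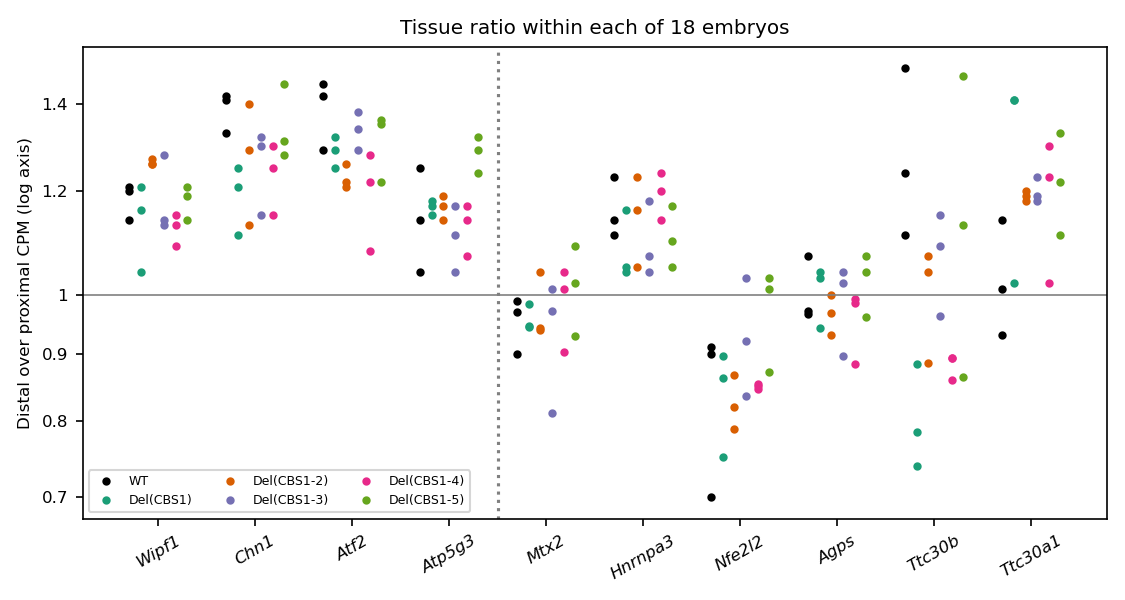
Ratio of distal over proximal CPM (log axis) in each of 18 embryos, coloured by genotype, for each gene in chromosomal order. For Wipf1, Chn1, Atf2, Atp5g3 and Hnrnpa3 every point lies above 1, and for Ttc30b the points spread from 0.739 to 1.49.

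The tissues also differed in cell makeup. All 16 skeletal muscle markers were called lower in distal WT, with a summed level of 42.8 to 43.6 CPM in distal WT and 2290 to 2690 CPM in proximal WT and with 0 of the 16 lacking reads in either tissue, and 12 of 12 proliferation genes were called higher in distal WT, with a median log2 difference of 0.44. Their part in the tissue differences of the 10 genes was not tested. In bulk tissue, fewer cells that express a gene and less RNA per cell cannot be told apart.

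Genes that work with each neighbour were counted in the same WT contrast, over 9 lists with 170 tested genes in all. Of these 57 were called, or 33.5%, with 41 higher and 16 lower. Over all 14918 genes 30.7% were called (13.6% higher, 17.1% lower), so the share called over the lists together was near this background. The hnRNP family, RNA-binding relatives of Hnrnpa3, had 15 of 19 members called higher in distal tissue and 0 lower, with a median log2 difference of 0.28 against 0 over all genes. Hnrnpu (0.42 ± 0.05) and Hnrnpul2 (0.35 ± 0.05) had the smallest p values. Of the NRF2 pathway and its targets 7 of 23 were higher and 2 lower, led by Txnrd1 (0.70 ± 0.05), a thioredoxin reductase, and Gclm (0.56 ± 0.09), a subunit of the enzyme that starts glutathione synthesis. Both are targets of NRF2, whose own transcript, Nfe2l2, was at -0.27 ± 0.11.

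Of the Rac GTPase and EphA4 signalling list with Chn1, 3 of 19 were higher and 6 lower. The receptor gene Epha4 rose with Chn1 in distal tissue (0.64 ± 0.06), and the ligand gene Efna5 fell (-0.78 ± 0.08). In the list of ATF, CREB and AP-1 factors, which also holds MAP kinase genes, 3 of 18 were higher and 3 lower. Jun (-0.91 ± 0.11), a dimer partner of ATF2, and Fosl2 (-1.08 ± 0.18) were lower in distal tissue. Of the WASP and Arp2/3 list 3 of 21 were higher and 2 lower, with Wipf2 (0.40 ± 0.06), a relative of Wipf1, and Wasf1 (0.38 ± 0.06) both higher.

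Mitochondrial and organelle genes were counted in the same way. Of the outer membrane and import list with Mtx2, 3 of 16 were higher and 0 lower. Tomm7 (0.35 ± 0.06) and Immt (0.22 ± 0.05), the latter on this list though its protein is of the inner membrane, had the smallest p values. In the ATP synthase list 1 of 13 was higher, Atp5b (0.21 ± 0.06), and 0 were lower. Intraflagellar transport genes had 4 of 21 higher and 1 lower, with Ift74 (0.34 ± 0.07) and Ift140 (0.25 ± 0.06) higher. The ether lipid and peroxisome list had 2 of 20 higher and 2 lower, with Far2 (-2.62 ± 0.39), a fatty alcohol-forming reductase, and Pex5 (-0.24 ± 0.06), a peroxisomal import receptor, lower in distal tissue.

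The next question was whether removal of the CTCF sites altered the neighbours. Across the 10 comparisons of an allele with WT, which share the WT libraries of each tissue, 2 of the 100 tests on the neighbours passed, both in distal Del(CBS1-2). Over all genes, 1.14% of the 155870 tests in these comparisons passed. In distal Del(CBS1-2) alone 2 of the 10 neighbours were called, against 10.5% of 15361 genes (5.99% lower). The share of the neighbours thus rests on few genes. For the comparisons with WT, the share of all genes whose groups did not overlap was not counted. At an unadjusted p under 0.05, 15 of 50 tests in distal tissue and 10 of 50 in proximal tissue passed, against 15.7% and 12% over all genes. For the 8 genes other than the Ttc30 pair, every 95% interval lay between -0.42 and 0.45 on the log2 scale. 

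**Figure D5:**
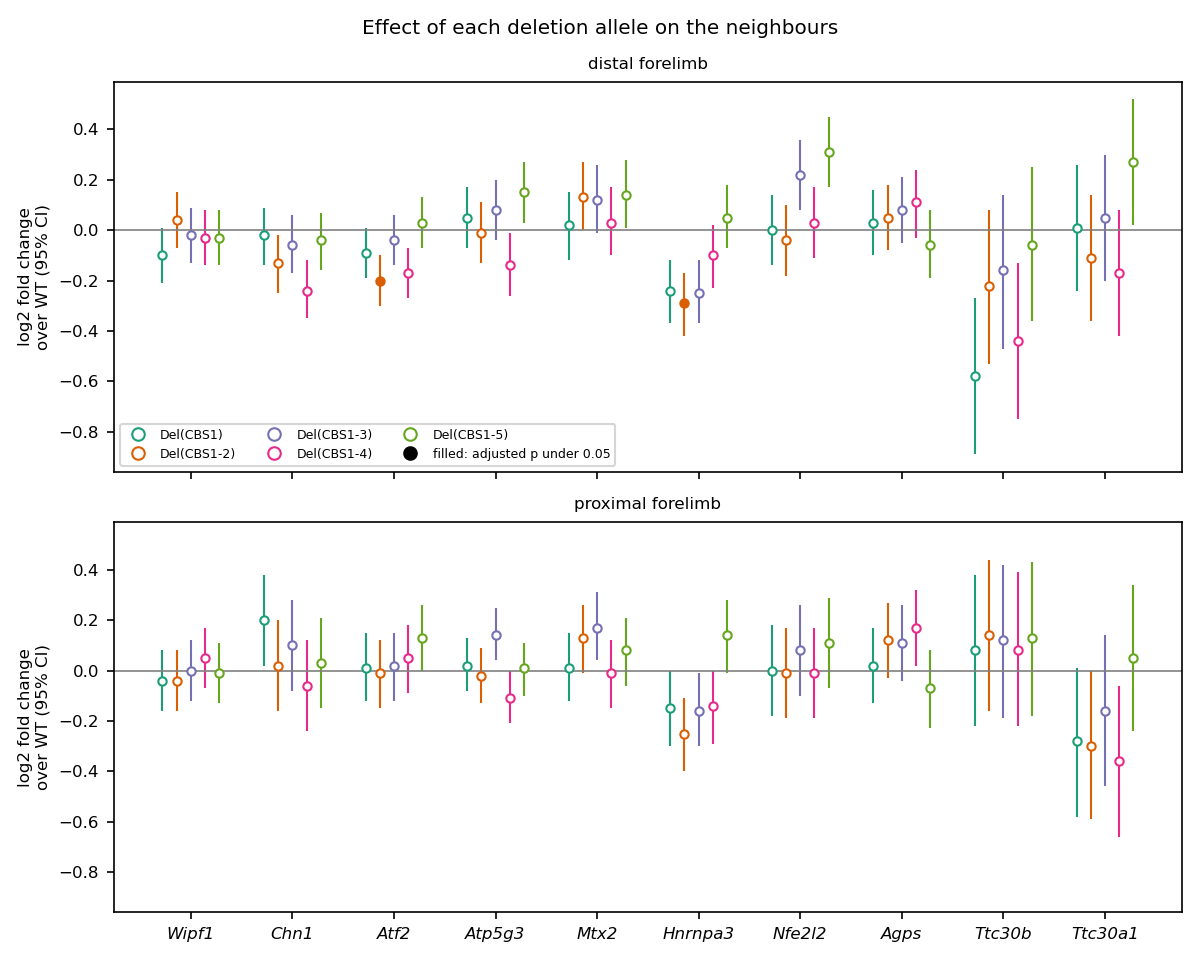
Log2 fold change of each allele over WT with its 95% confidence interval, for distal (upper) and proximal forelimb (lower); colours are alleles and filled points have an adjusted p under 0.05. The filled points are Atf2 and Hnrnpa3 in distal Del(CBS1-2), at -0.20 and -0.29.

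In distal Del(CBS1-2), Atf2 and Hnrnpa3 fell. Hnrnpa3 stood at 73.6, 63.9 and 61.5 CPM in distal Del(CBS1-2), against 83.6, 75.5 and 80.3 CPM in distal WT. The mutant libraries lay below the WT libraries without overlap, by -0.29 ± 0.06 on the log2 scale (edgeR adjusted p = 0.00723). Atf2 had 110, 118 and 115 CPM in distal Del(CBS1-2), against 125, 129 and 134 CPM in distal WT. It also showed no overlap, with a log2 fold change of -0.20 ± 0.05 (edgeR adjusted p = 0.0138). For comparison Hoxd9 fell by 1.45, Hoxd13 by 0.30 and Lnpk by 0.39 on the log2 scale in the same libraries. Chn1 (-0.13 ± 0.05, edgeR adjusted p = 0.116) was below WT in every library and was not called.

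These 2 calls did not hold under every setting. Without distal Del(CBS1-2) replicate 1, Atf2 was no longer called (edgeR adjusted p = 0.0657). In a fit of the 6 libraries alone 0 of the 10 genes were called at an adjusted p of 0.0527 for Atf2 and 0.0519 for Hnrnpa3 (edgeR). Skeletal muscle markers summed to 87.8 to 167 CPM in distal Del(CBS1-2), against 42.8 to 43.6 CPM in distal WT, with 2 of 16 called higher, and cartilage markers summed to 2830 to 2940 CPM, against 1920 to 2230 CPM, with 3 of 10 called higher. With the muscle score of each library as a covariate the differences were -0.17 for Atf2 (edgeR adjusted p = 0.136) and -0.32 for Hnrnpa3 (edgeR adjusted p = 0.0514).

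Hnrnpa3 was called with edgeR in 1 of the 10 comparisons, distal Del(CBS1-2), and was below WT in others without such a call. In distal tissue it had 67.7, 69.1 and 65.5 CPM in Del(CBS1) and 65.5, 68 and 70.3 CPM in Del(CBS1-3), against 83.6, 75.5 and 80.3 CPM in WT. Both groups lay below every WT library, by -0.24 ± 0.06 (edgeR adjusted p = 0.16) and -0.25 ± 0.06 (edgeR adjusted p = 0.105), and neither passed with edgeR, whereas DESeq2 called both (adjusted p = 0.0468 and 0.0453). In distal Del(CBS1-4) it had 76.3, 73.2 and 74 CPM and in Del(CBS1-5) 87.8, 81.5 and 81.7 CPM, and with the last of these its difference from WT was 0.05, with a 95% interval of -0.07 to 0.18. In proximal tissue it had 60, 55.3 and 58.4 CPM in Del(CBS1-2), against 73.5, 61.4 and 72.3 CPM in WT, a difference of -0.25 ± 0.07 (edgeR adjusted p = 0.0803, DESeq2 adjusted p = 0.0388). Its group means from Del(CBS1) to Del(CBS1-5) were 67.4, 66.4, 67.9, 74.5 and 83.7 CPM in distal tissue, against 79.8 CPM in WT. In proximal tissue they were 62.3, 57.9, 62, 62.5 and 75.6 CPM, against 69.1 CPM in WT. A trend with the number of sites removed was not tested. The comparisons of a tissue share its WT libraries, so the groups that lay below WT are not independent of each other. The counts of Hnrnpa3 carry the uncertainty of shared sequence given above.

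Mtx2, the neighbour nearest to the deleted sites, was called in 0 of 10 comparisons, with 2 of 10 at an unadjusted p under 0.05 and 0 called by DESeq2. Its log2 fold changes ran from -0.01 to 0.17, and the only one below 0 was that of proximal Del(CBS1-4). The largest was in proximal Del(CBS1-3), with 62.6, 62.7 and 69.4 CPM, against 57.9, 57.1 and 57.1 CPM in proximal WT. These groups did not overlap, and the difference of 0.17 had an interval of 0.04 to 0.31 (edgeR adjusted p = 0.254). In distal Del(CBS1-5) Mtx2 had 63.2, 58.4 and 61.5 CPM, against 56.2, 51.4 and 56.5 CPM in distal WT, a difference of 0.14 with an interval of 0.01 to 0.28 (edgeR adjusted p = 0.356). In Del(CBS1-2) it had 64.9, 61 and 57.1 CPM in distal tissue, a difference of 0.13 from distal WT (95% interval 0 to 0.27, edgeR adjusted p = 0.193), and 68.8, 58.7 and 60.9 CPM in proximal tissue, a difference of 0.13 from proximal WT (95% interval -0.01 to 0.26, edgeR adjusted p = 0.281). In 4 of the 10 comparisons, these included, every mutant library lay above every WT library of its tissue. In 0 of 10 did every one lie below. The comparisons of a tissue share its WT libraries, and the share of all genes separated in this way was not counted. These counts alone therefore do not show a rise of Mtx2. Over the 10 comparisons the intervals of Mtx2 lay between -0.15 and 0.31, so a loss larger than that lower bound lay outside each of them.

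The other distal comparisons called 0 of the 10 genes with edgeR, at backgrounds of 0.0325% in Del(CBS1), 0.00651% in Del(CBS1-3), 0.0846% in Del(CBS1-4) and 0.0651% in Del(CBS1-5). At an unadjusted p under 0.05 there were 2, 2, 4 and 4 of 10 genes, against 9.69%, 13.9%, 15.3% and 13.1% of all genes, and DESeq2 called 1 in each, at backgrounds of 0.824%, 0.935%, 2.17% and 0.949%. DESeq2 gave no adjusted p for the Ttc30 pair in distal Del(CBS1), where Ttc30b had an unadjusted p of 0.00106 (DESeq2). Chn1 had 62.9, 59.3 and 60.2 CPM in distal Del(CBS1-4), against 70.4, 73 and 71 CPM in distal WT. The groups did not overlap, and the difference of -0.24 ± 0.05 passed with DESeq2 (adjusted p = 0.0255) and not with edgeR (adjusted p = 0.0845). Nfe2l2 had 45.8, 48.2 and 45.1 CPM in distal Del(CBS1-5), against 41.4, 35.1 and 34.5 CPM in distal WT. It was higher in every mutant library, by 0.31 ± 0.07 (edgeR adjusted p = 0.0959, DESeq2 adjusted p = 0.0172). In distal Del(CBS1-3) Nfe2l2 was higher by 0.22 ± 0.07, again without overlap and without a call (edgeR adjusted p = 0.182). One WT library matters here: without distal WT replicate 1, Nfe2l2 was called in both alleles. In Del(CBS1-5) it was also called without mutant replicate 3, and Atp5g3 was called higher without distal WT replicate 3.

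Ttc30b showed the largest log2 difference from WT among the 10 genes. It had 5.99, 5.54 and 6.17 CPM in distal Del(CBS1), against 9.29, 8.19 and 8.97 CPM in distal WT. Each mutant library lay below each WT library, by -0.58 ± 0.15 (edgeR adjusted p = 0.182). In distal Del(CBS1-4) it had 6.34, 6.61 and 6.6 CPM, a difference of -0.44 ± 0.15 (edgeR adjusted p = 0.159). In proximal tissue the same gene had 6.77, 7.5 and 7.85 CPM in Del(CBS1), against 6.24, 7.36 and 7.22 CPM in WT, with overlapping groups. Its relative Ttc30a1 had 14.7, 14 and 14.4 CPM in distal Del(CBS1-5), against 11.3, 12.4 and 11.7 CPM in distal WT, a difference of 0.27 ± 0.12 (edgeR adjusted p = 0.336). Larger differences of the opposite sign were measured in proximal tissue. Ttc30a1 had 8.01, 10.1 and 8.83 CPM in proximal Del(CBS1-4), against 12.2, 10.9 and 11.5 CPM in proximal WT, a difference of -0.36 ± 0.14 (edgeR adjusted p = 0.279). In proximal Del(CBS1-2) it had 9.51, 9.24 and 9.38 CPM, a difference of -0.30 ± 0.14 (edgeR adjusted p = 0.254). The groups did not overlap in these 3 comparisons. They did not overlap in distal Del(CBS1-2) either, where Ttc30a1 differed by -0.11 ± 0.12 (edgeR adjusted p = 0.603). Ttc30a1 was called in none of the 10. The comparisons of a tissue share its WT libraries, and separated groups were not counted over all genes.

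In proximal forelimb 0 of the 10 genes were called with edgeR in the 5 alleles, at backgrounds of 0.0443% in Del(CBS1), 0.721% in Del(CBS1-2), 0.0696% in Del(CBS1-3), 0% in Del(CBS1-4) and 0.0696% in Del(CBS1-5) of 15813 genes. At an unadjusted p under 0.05 there were 2, 2, 3, 3 and 0 of 10 genes, against 7.1%, 19.5%, 13.1%, 14.1% (2229 genes) and 6.48% of all genes, and DESeq2 called Hnrnpa3 in Del(CBS1-2), at a background of 4.27%, and 0 in the other alleles. DESeq2 gave no adjusted p for the Ttc30 pair in proximal Del(CBS1-3). Atp5g3 was highest in Del(CBS1-3), with 259, 277 and 281 CPM, against 243, 245 and 251 CPM in proximal WT. The difference was 0.14 ± 0.05 (edgeR adjusted p = 0.234). Atp5g3 was lowest in Del(CBS1-4), with 226, 236 and 224 CPM, a difference of -0.11 ± 0.05 (edgeR adjusted p = 0.348). Both groups lay apart from WT, on opposite sides of it. Without proximal WT replicate 2, Hnrnpa3 was called lower in Del(CBS1-2) and Agps higher in Del(CBS1-4). Wipf1 overlapped with WT in all 10 comparisons, with log2 fold changes of -0.10 to 0.05, and Agps did so as well, with -0.07 to 0.17.

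Whether an allele acted differently in the 2 tissues was asked through an interaction term fitted over the 36 libraries. For each allele 0 of the 10 genes were called with edgeR or with limma, and 0 with DESeq2 among those it gave an adjusted p, and 2, 1, 0, 2 and 2 of 10 had an unadjusted p under 0.05 with edgeR, in the order of the alleles, against 2.12%, 11.1%, 3.94%, 6.11% and 5.93% of all 16292 genes. The backgrounds of adjusted calls were 0% in Del(CBS1), 0.0491% in Del(CBS1-2), 0.00614% in Del(CBS1-3), 0.0184% in Del(CBS1-4) and 0% in Del(CBS1-5). The largest difference was that of Ttc30b with Del(CBS1), at -0.66 ± 0.20 (edgeR unadjusted p = 0.00215, adjusted p = 1). For Atf2 the difference was -0.17 ± 0.08 with Del(CBS1-2) (edgeR adjusted p = 0.426) and -0.22 ± 0.08 with Del(CBS1-4) (edgeR adjusted p = 0.6). In proximal Del(CBS1-2) Atf2 stood at 91.2, 93.7 and 94.2 CPM, against 85.9, 101 and 94.6 CPM in proximal WT, so that its lower level was called in distal tissue while the difference between the tissues was not.

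The lists of functional partners were also counted in distal Del(CBS1-2), the allele comparison with the most calls. Of 170 tested genes 20 were called, or 11.8%, with 6 higher and 14 lower, against 10.5% of all 15361 genes (5.99% lower). The share called over the lists together was near this background, and each list holds few called genes. In the hnRNP family 5 of 19 were lower and 0 higher, at a median of -0.10 against 0 over all genes, led by Hnrnph3 (-0.24 ± 0.04) and Syncrip (-0.28 ± 0.06). Creb1 (-0.30 ± 0.06), which like Atf2 binds cyclic AMP response elements, was the 1 of 18 called in the ATF, CREB and AP-1 list. Mtx3 (-0.36 ± 0.08), a relative of Mtx2, was lower and Tomm6 (0.27 ± 0.06) higher in the outer membrane list, with 1 of 16 higher and 2 lower in all. 

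Of the intraflagellar transport genes 3 of 22 were lower, among them Ift74 (-0.26 ± 0.07) and Ift81 (-0.21 ± 0.06), which form a pair in complex B. Far1 (-0.26 ± 0.06), which makes the fatty alcohol used in ether lipid synthesis, and Pex7 (-0.34 ± 0.11), the import receptor of Agps, were the 2 of 19 called in the ether lipid and peroxisome list. Atp5e (0.20 ± 0.05) and Atp5o (0.17 ± 0.05) were the 2 of 13 higher in the ATP synthase list. Slc7a11 (-0.47 ± 0.12), a cystine transporter, was the 1 of 23 called in the NRF2 list. Wasf2 (0.17 ± 0.04) was the 1 of 21 called in the WASP and Arp2/3 list, and Efnb3 (0.17 ± 0.04) and Arhgap1 (0.20 ± 0.06) the 2 of 19 called in the Rac and EphA4 list. As for Atf2 and Hnrnpa3, muscle and cartilage markers were higher in these libraries, and their part was not tested for the lists.

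Across the 36 libraries, which share embryos and tissues, Pearson's r of log2 CPM between genes of the Hoxd13 side was 0.85 for Chn1 and Atf2, 0.81 for Chn1 and Atp5g3, 0.80 for Wipf1 and Atf2, 0.78 for Atf2 and Atp5g3, 0.66 for Wipf1 and Chn1 and 0.56 for Wipf1 and Atp5g3. The highest values across the cluster were 0.66 for Atp5g3 and Ttc30a1, 0.65 for Atf2 and Ttc30a1 and 0.62 for Atf2 and Hnrnpa3, and the highest on the Hoxd1 side was 0.69, for Hnrnpa3 and Ttc30a1. Mtx2 had r of -0.30 with Wipf1, -0.23 with Atf2, -0.18 with Chn1 and 0.16 with Atp5g3, and Nfe2l2 had -0.54 with Wipf1. Taken as deviations from the group means, r on the Hoxd13 side was 0.40 for Chn1 and Atf2, 0.27 for Chn1 and Atp5g3, 0.27 for Atf2 and Atp5g3 and 0.21 for Wipf1 and Atf2, but -0.27 for Wipf1 and Chn1 and -0.37 for Wipf1 and Atp5g3. The highest value of any pair was 0.53, between Mtx2 and Hnrnpa3. Among genes with a mean of at least 10 CPM, the one most like Atf2 was Trim37 (r = 0.97), the one most like Atp5g3 was Psmb7 (0.95), the one most like Chn1 was Myo10 (0.92), the one most like Wipf1 was Eva1a (0.91) and the one most like Mtx2 was Ndufb5 (0.77).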

How the data were processed

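Distal and proximal forelimbs were profiled in 36 strand-specific, single-end libraries of 50 bases. The authors deposited whole-number read counts per Ensembl gene and a table of Cufflinks FPKM values, per the file headers. Per the submitters' processing notes, the mm10 build was used with STAR 2.7.0, cutadapt 1.16, bedtools 2.27.1 and Cufflinks 2.2.1, with no role stated for each. Whether counting used strand is not given in the sources used here. The count table covers autosomes. Groups and replicate numbers come from the sample titles, and 0 columns were left without a sample.

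Counts were tested with edgeR 4.0.16 in R 4.3.3 (glmQLFit and glmQLFTest, TMM scaling, filterByExpr on the groups), with Benjamini-Hochberg adjustment over all genes tested and calls at an adjusted p under 0.05. Alleles were compared with WT within each tissue over its 18 libraries, the WT tissues in 6 libraries, and the mutant tissue contrast and the interactions in 1 fit of all 36. The test was tried on simulated counts first. DESeq2 1.42.0, limma 3.58.1 on log2(FPKM + 1) for genes with a mean of at least 0.5 FPKM, other size factors, no count filter, a muscle score as covariate, blocks and leaving out each library were the alternatives. Errors are SE for log2 fold changes and SD for levels.

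Replicate numbers pair the tissues of an embryo, since same-numbered distal and proximal libraries deviated together from their group means (r of 0.24 to 0.66 in 18 of 18 pairs). Between mutant and WT libraries of the same number and tissue, r ran from -0.17 to 0.42. The same-numbered WT library gave the highest r for 5 of 15 distal and 6 of 15 proximal mutant libraries. The highest values were those of Del(CBS1-3) replicate 3, at 0.31 in distal and 0.42 in proximal tissue. The main fits did not pair mutant with WT libraries by number. Libraries of a group differed by more than counting noise in every pair (chi-square per degree of freedom 2.56 to 19.27). The 10 genes and the lists were chosen with earlier results of these data known. All 10 genes are named throughout, and of each list the up to 2 called genes with the smallest p in 2 comparisons. Of the genes with the most similar pattern, 5 are named. Motifs were searched on both strands of RefSeq promoters.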

Additional observations from a re-analysis of the deposited data

How the results depend on the processing

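The count of called neighbours kept within 1.5 times its value in all 17 comparisons under other size factors. With the replicate block it moved in 1 of 17, WT distal against proximal, where 6 passed with the block and 3 without it, and it changed no other count. In 1 fit of all 36 libraries that count was 7, and 7 with the embryo as a block, an alternative chosen after seeing the data. With DESeq2 the count was 1 in proximal Del(CBS1-2) and, except in Del(CBS1-2), in each allele in distal tissue, against 0 with edgeR. Without a filter on low counts it was 1 in proximal Del(CBS1-2) and in distal Del(CBS1-3), distal Del(CBS1-4) and distal Del(CBS1-5). In distal Del(CBS1-2), where edgeR called 2, limma on FPKM called 1 (Hnrnpa3), the muscle covariate 0 and the fit of 6 libraries 0. With the covariate 130 genes in all were called there, against 1606. Leaving out 1 library at a time gave 1 to 2 calls in distal Del(CBS1-2), 0 to 1 in distal Del(CBS1-3) and Del(CBS1-5) and in proximal Del(CBS1-2) and Del(CBS1-4), 2 to 4 in the WT contrast, 7 to 7 in the mutant tissue contrast and 0 to 0 elsewhere. The cause of these changes was not tested. Shares over all genes are not given here for the fits without a filter, with limma, of 6 libraries or without 1 library. The counts under those settings therefore do not tell a change in the neighbours from a change in calls over all genes. None of the neighbours called in the main fits changed direction under these alternatives. The genes of the lists and the other Hoxd region genes were not followed under them. The Ttc30 pair, with 78 to 215 reads per library, is limited by depth, with standard errors of 0.12 to 0.15 against WT.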
